A study of Mus musculus with 27 samples.

Results

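The integrated stress response is a shared pathway by which cells answer amino acid shortage, unfolded protein, haem shortage and oxidative damage. Stress-activated kinases phosphorylate the translation initiation factor eIF2, most protein synthesis slows, and the mRNA of the transcription factor ATF4 is translated more. ATF4 then pairs with other basic leucine zipper proteins, such as those of the C/EBP family, at C/EBP-ATF response elements of its target genes. Since ATF4 is raised mainly at translation, its mRNA level is only a partial readout of the pathway, and the mRNAs of its targets are the usual companion readout. In the ovary, the pathway is known from granulosa cells and oocytes under nutrient, protein-folding and oxidative stress.

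The 10 genes described here are Atf4 and 9 genes known as its targets or as members of its response: Ddit3, Trib3, Asns, Chac1, Sesn2, Psat1, Ppp1r15a, Eif4ebp1 and Ddit4. They were chosen by symbol, as the rows of a table of 51789 Ensembl gene IDs that GENCODE M21 maps to these names. All 10 had a row, and all 10 passed the filter on low counts in every comparison. A second GENCODE identifier for Ddit3, ENSMUSG00000116429, was not among the rows.

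The table held 27 libraries of mouse ovary polyA RNA from 2 experiments. Experiment 1 comprised untreated young (n = 5) and untreated aged (n = 4) ovaries, with aged ovaries after TRi-1 (n = 4). TRi-1 is a small molecule made to block thioredoxin reductase 1, the cytosolic enzyme that keeps thioredoxin reduced. Experiment 2 comprised untreated young (n = 5) and untreated aged (n = 5) ovaries, with aged ovaries after auranofin (n = 4). Auranofin contains gold and blocks both cytosolic and mitochondrial thioredoxin reductases. Strain, ages in weeks or months, doses and duration of treatment are not given in the sources used here. The labels give neither a vehicle for the untreated mice nor a transgene or allele. Levels are CPM, the counts scaled to a library of fixed size with TMM factors. The libraries were made from the 3' ends of transcripts, so a gene's count does not grow with transcript length. Changes are log2 fold changes ± their standard error from edgeR's quasi-likelihood F test, with p adjusted by Benjamini-Hochberg over all genes tested and 0.05 as the threshold for "rose" and "fell".

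Promoter sequence is shown for the 3 members whose start region held the letters of the C/EBP-ATF response element, TGATGNAAN. The windows, from RefSeq on GRCm38.p6, run from 250 bases before the start site to 50 after it, and 9 of the 10 members had one. The motif was searched on both strands. Each stretch is printed 5′ to 3′ on the strand of its gene, and capitals mark the match. Both the Chac1 and the Trib3 match lie on the opposite strand, so the capitals there are the reverse complement of the element.
Chac1, chr2:119350992-119351241, plus strand: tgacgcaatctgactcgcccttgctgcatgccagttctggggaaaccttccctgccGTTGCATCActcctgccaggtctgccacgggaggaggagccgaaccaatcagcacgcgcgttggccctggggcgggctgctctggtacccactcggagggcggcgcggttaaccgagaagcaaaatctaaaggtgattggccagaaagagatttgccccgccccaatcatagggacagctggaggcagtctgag
Trib3, chr2:152344031-152344310, minus strand: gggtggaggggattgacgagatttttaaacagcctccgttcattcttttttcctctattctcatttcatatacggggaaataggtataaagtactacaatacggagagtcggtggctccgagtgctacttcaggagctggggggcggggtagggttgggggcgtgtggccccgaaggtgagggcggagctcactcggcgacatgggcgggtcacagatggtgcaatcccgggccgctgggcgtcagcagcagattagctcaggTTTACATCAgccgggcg
Asns, chr6:7693210-7693459, minus strand: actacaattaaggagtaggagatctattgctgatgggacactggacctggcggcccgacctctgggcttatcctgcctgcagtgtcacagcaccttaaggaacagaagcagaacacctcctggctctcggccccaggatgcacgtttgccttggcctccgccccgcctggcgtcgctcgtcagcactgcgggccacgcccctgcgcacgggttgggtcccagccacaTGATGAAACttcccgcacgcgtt

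In the orientation of the element, Chac1 held TGATGCAAC with its leftmost base on the gene's strand 194 bases before the RefSeq start site. Asns held TGATGAAAC 23 bases before its RefSeq start site, and Trib3 held TGATGTAAA 13 bases after its own. The GENCODE loci given below reverse the side for both. The Asns match, chr6:7693224-7693232, lies inside its GENCODE locus, which starts at 7693254 on the minus strand. The Trib3 match, chr2:152344039-152344047, lies before its GENCODE start at 152344032 on the minus strand. Of 27025 genes with a window, 4.5% held the motif. With 1 more letter left free (TGNTGNAAN, which takes in every match of the first motif), 5 of the 9 members held a match, the 3 above with Sesn2 and Psat1, against 16.6% of genes. Ddit3, Ppp1r15a, Ddit4 and Atf4 had no match in these windows. These matches are letters in a sequence and were not tested as binding sites.

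Library totals ran from 6460903 to 14814381 counts. Within groups, the library that stood farthest from its group was replicate 3 of the young mice of experiment 2 (median correlation with its group 0.854), followed by replicate 4 of the auranofin group (0.867). All others were at 0.88 or above. In that young library, the summed level of 8 luteal and steroid-producing cell markers was 89.3 CPM against 1890 to 4479 CPM in the other young mice of experiment 2, and that of 10 granulosa and cumulus cell markers was 111 CPM against 583 to 1368 CPM. Its 9 theca and stromal cell markers summed to 5531 CPM, the highest of the 5 young mice (others 2912 to 5305 CPM). In auranofin replicate 4, 6 adipocyte markers summed to 10860 CPM and 8 plasma cell markers to 24340 CPM, against 363 to 4214 CPM and 649 to 4219 CPM in the other 3. Several results of experiment 2 that depend on either library are given with and without it. In untreated ovaries some cell markers moved with age in both experiments, among them those of oocytes, macrophages and plasma cells. Others overlapped between young and aged mice in both, as did those of theca and stromal cells, epithelium, adipocytes and smooth muscle. Theca and stromal cell markers, for example, ran from 2624 to 4553 CPM in young and from 2249 to 3587 CPM in aged mice of experiment 1. The sum of 10 oocyte markers ran from 138 to 259 CPM in young and from 6.04 to 11.4 CPM in aged mice of experiment 1, with Zp2, Zar1 and Figla at 0 in all 4 aged libraries. In experiment 2 it ran from 4.11 to 134 CPM in young and from 2.62 to 9.83 CPM in aged mice, with Zp2 and Figla at 0 in the aged libraries. The 4.11 CPM was that of young replicate 3, and the other young libraries ran from 45.2 to 134 CPM. Markers of macrophages ran from 729.5 to 1192 CPM in young and from 6551 to 12824 CPM in aged mice of experiment 1, and 9 of 10 rose. In experiment 2 they ran from 620.1 to 1362 CPM and from 4078 to 8497 CPM, and 9 of 10 rose. Plasma cell markers ran from 94.8 to 153.5 CPM in young and from 10335 to 13004 CPM in aged mice of experiment 1, and from 79.8 to 249 CPM and from 5625 to 14127 CPM in experiment 2. The part of these cell types in the age results below was not tested. In RNA of whole ovaries, a change in the number of cells of a type and a change in RNA per cell cannot be told apart.

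The first comparison asked how the stress response genes differed between aged and young untreated ovaries. In experiment 1 Atf4, Trib3 and Ddit3 rose with age and no member fell. These 3 of 10 stand against 34.9% of the 16028 genes tested that passed in either direction and against 18.5% that passed upward and 16.4% downward, so the share of members is near the background. The median log2 fold change of the 10 was 0.54, against 0.02 over all genes tested, and 9 of the 10 were positive. In experiment 2 no member passed edgeR's threshold, where 10.5% of 16309 genes did, 5.86% upward. No member's groups were free of overlap there, as those of 11.2% of genes were. There 1 member, Asns, had an unadjusted edgeR p under 0.05, as did 3793 of the 16309 genes. DESeq2 called no member, and the members' median was 0.26 against -0.03 over all genes.

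Atf4 (chr15:80255184-80257541, GRCm38) encodes the transcription factor at the centre of the response. In experiment 1 the 5 young mice had 86.5, 82.7, 139.7, 79.3 and 80.9 CPM, and the 4 aged mice 265, 139.3, 271 and 246 CPM. A single young library reached the lowest aged one, and 3 of the 4 aged libraries lay above every young library. The increase was 1.30 ± 0.22 on the log2 scale, or 2.47-fold (edgeR adjusted p = 0.000367). In experiment 2 the young mice had 141, 236, 262, 115 and 148 CPM and the aged mice 231, 249.9, 214, 246 and 187 CPM. The young mice of this experiment spanned the range of the aged ones, and the difference of 0.32 ± 0.24 did not pass (edgeR adjusted p = 0.49). Without young replicate 3 the difference was 0.49 on the log2 scale and did not pass.

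Trib3 (chr2:152337422-152344032) encodes a pseudokinase that ATF4 and CHOP induce and that restrains AKT and ATF4 itself. In experiment 1 it was counted in young mice at 3.62, 0.77, 0, 1.43 and 0.44 CPM, from 0 to 32 reads, and in aged mice at 5.41, 4.59, 6.36 and 9.05 CPM, from 44 to 108 reads. The groups did not overlap, as held for 27.5% of the genes tested. The increase was 2.30 ± 0.67 on the log2 scale (edgeR adjusted p = 0.0141). With each library left out it ran from 2.01 to 3.15, the latter without young replicate 1, the young library with 32 reads. In experiment 2 the levels were 1.70, 3.601, 7.64, 3.01 and 2.38 CPM in young and 2.07, 3.72, 4.24, 5.41 and 1.64 CPM in aged mice. These groups covered the same range (-0.11 ± 0.49, edgeR adjusted p = 0.93), and the highest value was that of young replicate 3, the library with low luteal and granulosa cell markers. Without that library the difference was 0.35.

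Ddit3 (chr10:127290774-127296288) encodes CHOP, a C/EBP-family factor that ATF4 induces and that is known for promoting cell death in lasting stress. The young mice of experiment 1 had 36.0, 32.1, 43.5, 30.9 and 29.0 CPM and the aged mice 67.2, 54.5, 44.96 and 39.3 CPM. The groups overlapped in 1 library each. The rise of 0.59 ± 0.21 was close to the threshold (edgeR adjusted p = 0.0414). It no longer passed when any of young replicates 1, 2, 4 and 5 or aged replicates 1, 2 and 3 was left out (adjusted p from 0.0579 to 0.131), nor with library totals in place of TMM scaling (0.0908) or all 27 libraries in the fit (0.287). In experiment 2 the values spread from 19.6 to 55.5 CPM in young and from 23.7 to 57.5 CPM in aged mice, with no difference past the threshold (-0.07 ± 0.46, edgeR adjusted p = 0.95). The 3' end of Ddit3 shares 68 exonic bases with Mars, the methionyl-tRNA synthetase gene on the opposite strand, and whether reads were counted by strand is not given in the sources used here. Mars was at 32.7 ± 3.50 CPM (SD, n = 5) in young and 40.6 ± 3.35 CPM (SD, n = 4) in aged mice of experiment 1.

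Ppp1r15a (chr7:45522916-45526268) encodes GADD34, the stress-induced regulatory subunit that brings protein phosphatase to eIF2 and so ends the response. It was at 4.45 to 6.78 CPM in young and 5.41 to 11.3 CPM in aged mice of experiment 1, and at 3.46 to 7.77 CPM and 3.52 to 13.6 CPM in experiment 2. Neither difference passed (0.49 ± 0.30 and 0.45 ± 0.44, edgeR adjusted p = 0.23 and 0.61). Ppp1r15a shares 12 exonic bases with Tulp2 on the opposite strand, which held more reads over the 27 libraries, 3487 against 2181.

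The members include 2 enzymes of amino acid synthesis, neither of which passed with age. Asns (chr6:7675169-7693254), asparagine synthetase, did not pass in experiment 1, with 13.2, 30.5, 26.7, 28.8 and 32.1 CPM in young and 24.4, 24.3, 30.004 and 28.3 CPM in aged mice (0.04 ± 0.30, edgeR adjusted p = 0.93, 95% interval -0.55 to 0.64). In experiment 2 its levels were 13.2, 8.59, 8.90, 10.9 and 7.39 CPM in young and 20.8, 14.5, 14.1, 15.2 and 11.8 CPM in aged mice. There 4 of the 5 aged libraries lay above every young one, with a difference of 0.64 ± 0.24 (unadjusted p under 0.05, edgeR adjusted p = 0.11). Psat1 (chr19:15904678-15947337), the transaminase of serine synthesis, was at 19.2 to 33.1 CPM in young and 27.01 to 44.5 CPM in aged mice of experiment 1 (0.29 ± 0.22, edgeR adjusted p = 0.32). In experiment 2 it was at 19.1 to 38.2 CPM and 22.5 to 32.8 CPM (0.17 ± 0.23, edgeR adjusted p = 0.74), and the difference was 0.38 without young replicate 3.

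Chac1 (chr2:119351229-119354381), which encodes an enzyme that breaks down glutathione, had the fewest reads of the 10, 608 over all libraries. In experiment 1 it was at 0.34, 2.17, 1.67, 2.39 and 0 CPM in young and 5.41, 0.10, 0.56 and 3.52 CPM in aged mice. The aged values fell on both sides of the young ones (0.87 ± 0.96, edgeR adjusted p = 0.51), and the 4 aged libraries held 44, 1, 6 and 42 reads. The difference ran from 0.14 without aged replicate 1 to 1.28 without aged replicate 2. In experiment 2 it was 0.75 ± 0.57 (edgeR adjusted p = 0.48), with 0.42 to 1.84 CPM in young and 0.51 to 3.25 CPM in aged mice. Sesn2 (chr4:132492032-132510501), a leucine sensor that restrains mTORC1 and supports antioxidant defence, was at 5.197, 4.49, 6.67, 3.94 and 3.35 CPM in young and 9.35, 5.30, 13.7 and 6.29 CPM in aged mice. Its difference of 0.88 ± 0.35 was just beyond the threshold (edgeR adjusted p = 0.0622). With each of the 9 libraries left out in turn it ran from 0.52, without aged replicate 3 (edgeR adjusted p = 0.30), to 1.06. It passed in 2 of these fits, without young replicate 3 (1.04, edgeR adjusted p = 0.0379) and without aged replicate 2 (1.06, edgeR adjusted p = 0.0356), and under no other alternative. In experiment 2 it was at 2.43 to 6.79 CPM in young and 4.01 to 7.70 CPM in aged mice (0.21 ± 0.36, edgeR adjusted p = 0.80).

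Neither Eif4ebp1 nor Ddit4 passed with age in either experiment. Eif4ebp1 (chr8:27260329-27276674), the 4E-BP1 repressor of the cap-binding protein, was at 41.0 to 58.8 CPM in young and 30.6 to 84.0 CPM in aged mice of experiment 1, and at 26.6 to 42.7 CPM and 33.4 to 46.3 CPM in experiment 2. The differences were 0.21 ± 0.25 and 0.30 ± 0.18 (edgeR adjusted p = 0.56 and 0.34). Ddit4 (chr10:59949669-59951834), encoding the mTORC1 inhibitor REDD1, was the single member with a negative value in experiment 1 (-0.16 ± 0.30, edgeR adjusted p = 0.71). Its levels there were 30.2 to 77.5 CPM in young and 25.8 to 72.7 CPM in aged mice. In experiment 2 they were 15.4 to 100.03 CPM and 26.5 to 48.9 CPM (-0.36 ± 0.38, edgeR adjusted p = 0.65), and the difference was 0.060 without young replicate 3.

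**Figure D1:**
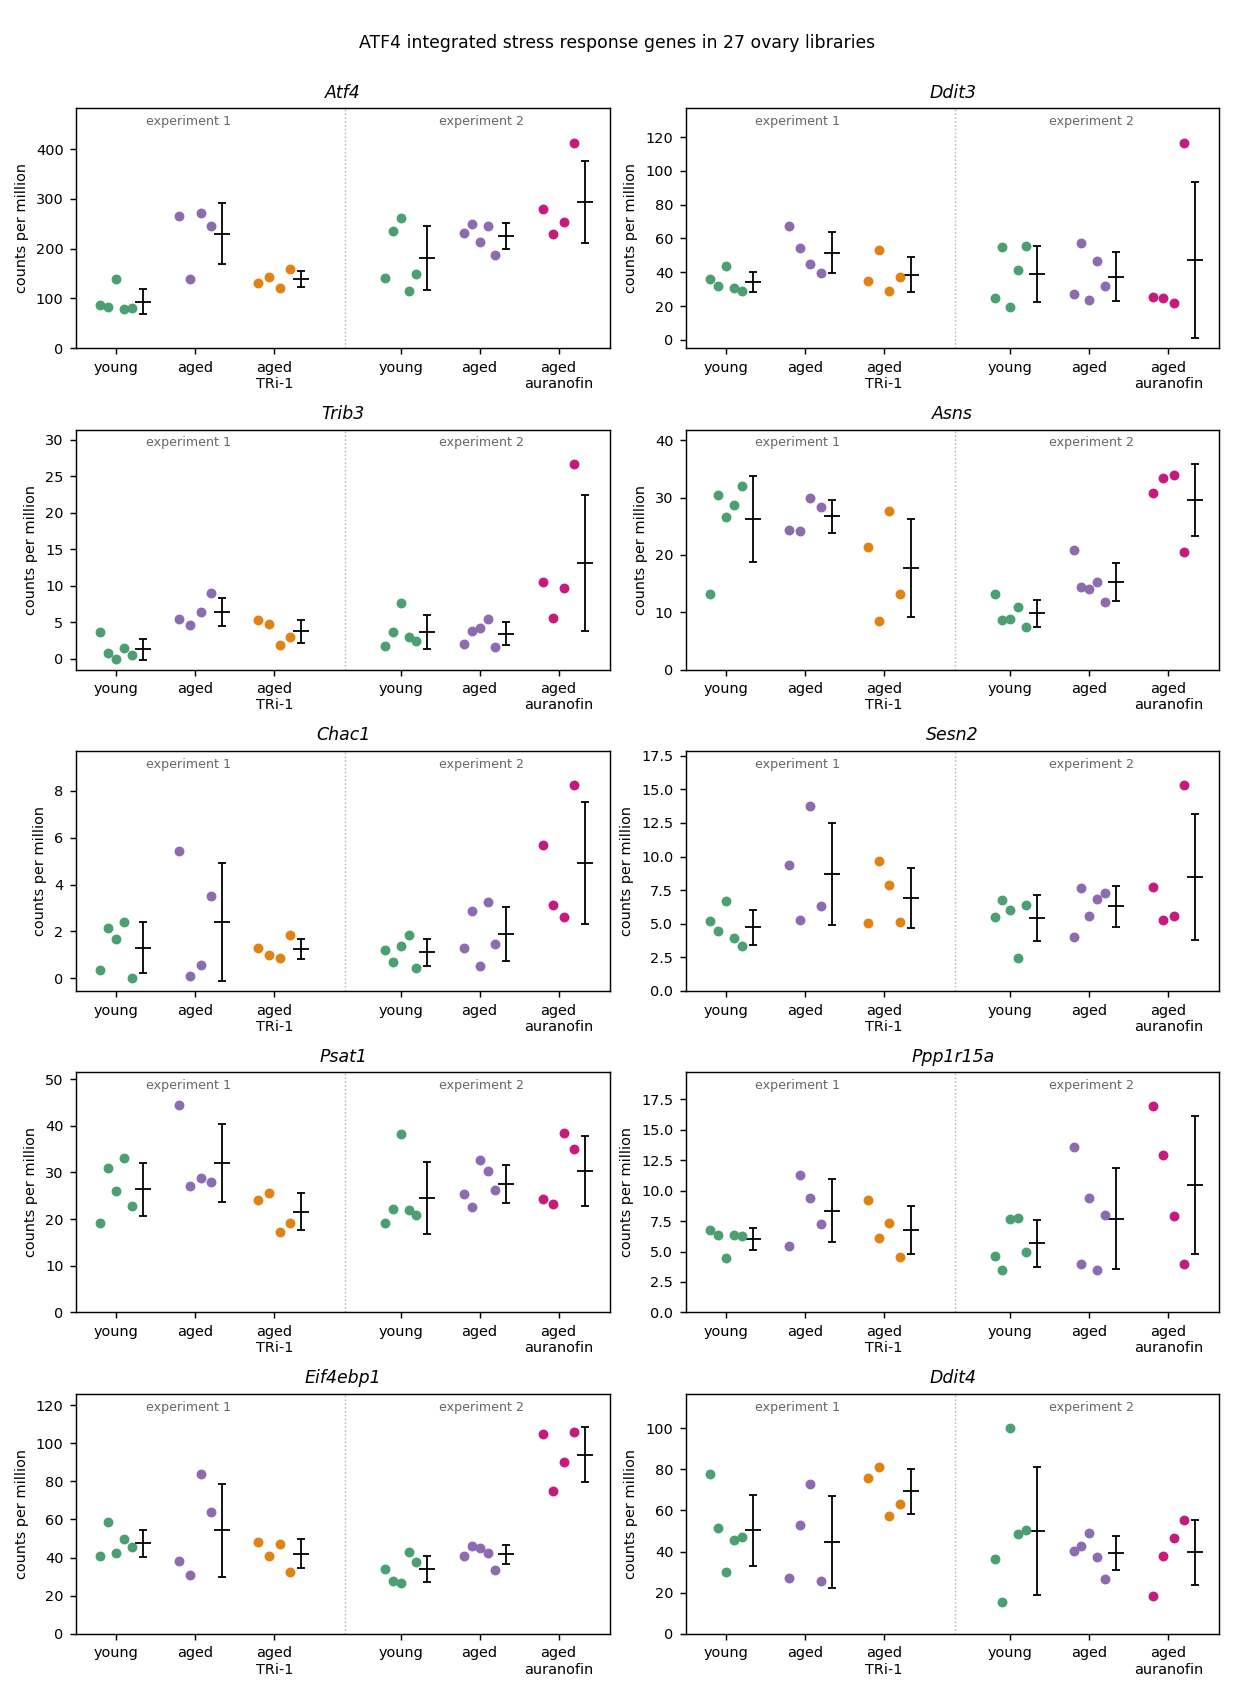
CPM (vertical axes, linear) of the 10 genes in the 27 ovary libraries, by group and experiment; each coloured point is 1 library, and the black bar beside the points is the group mean with its SD. Atf4 is high in 3 of the 4 aged mice of experiment 1, Eif4ebp1 is high in all 4 auranofin-treated mice, and a single auranofin library lifts Ddit3.

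Whether the age effect differed between experiments was tested in 1 fit of all 27 libraries. No gene of the 17484 tested passed (0% called), so none of the 10 members did, with 2 members and 2067 genes at an unadjusted p under 0.05 and no member called by DESeq2. Those 2 members were Atf4 (experiment 2 minus experiment 1, -0.98 ± 0.33, edgeR adjusted p = 0.23) and Trib3 (-2.38 ± 0.85, edgeR adjusted p = 0.26). Averaged over both experiments, Atf4 rose with age by 0.81 ± 0.17 (edgeR adjusted p = 0.000405) and Trib3 by 1.09 ± 0.43 (edgeR adjusted p = 0.0478), where 35.3% of genes passed in either direction, 17.5% upward and 17.8% downward. The Trib3 call is at the edge of the threshold. Leaving out singly any of 15 libraries ended it, with adjusted p up to 0.108, and it held without young replicate 1 of experiment 1, or without young replicate 3, aged replicate 1 or aged replicate 5 of experiment 2. RLE scaling (edgeR adjusted p = 0.0547), library totals (0.0667) and no filter (0.0536) ended it as well.

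The second comparison asked what TRi-1 did in aged ovaries. No member passed edgeR's threshold, where 0.418% of 16028 genes did. In TRi-1-treated mice 9 of the 10 members were below the untreated aged mice in fitted value, Ddit4 being the exception. The members' median was -0.51 against 0.00 over all genes. An unadjusted edgeR p under 0.05 was found for 2 members and for 2650 of the 16028 genes, and DESeq2 called no member. Scaling by library totals alone moved the median of all genes to 0.26 and that of the members to -0.23, and turned the split of called genes from 28 higher and 39 lower to 348 higher and 24 lower. Under that scaling too, 9 of the 10 members were negative.

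Atf4 in TRi-1-treated mice was at 131, 143, 122 and 158 CPM, below 3 of the 4 untreated aged mice (265, 139.3, 271 and 246 CPM). The difference was -0.75 ± 0.24 (edgeR adjusted p = 0.14). The treated libraries were close together, and the overlap came from the untreated replicate at 139.3 CPM. Psat1 was the single member whose groups did not overlap, with 24.1, 25.6, 17.3 and 19.2 CPM in treated against 44.5, 27.01, 28.7 and 28.0 CPM in untreated aged mice, a separation seen for 9.07% of genes tested. Its difference was -0.59 ± 0.23 (edgeR adjusted p = 0.22). Asns gave 21.5, 8.56, 27.7 and 13.1 CPM, with 1 library inside the untreated range and 3 below it (-0.62 ± 0.32, edgeR adjusted p = 0.35).

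Trib3 was at 5.26, 4.79, 1.90 and 2.93 CPM with TRi-1 (-0.79 ± 0.67, edgeR adjusted p = 0.60). Ddit3 was at 34.9, 53.3, 29.0 and 37.3 CPM (-0.43 ± 0.23, edgeR adjusted p = 0.36). Both groups of treated libraries overlapped the untreated ones. Chac1, Sesn2, Ppp1r15a and Eif4ebp1 had differences from -0.95 to -0.33 and adjusted p from 0.50 to 0.70. Ddit4 went the other way, at 75.6, 81.3, 57.2 and 63.2 CPM against 27.1, 52.9, 72.7 and 25.8 CPM (0.62 ± 0.32, edgeR adjusted p = 0.35). Macrophage markers summed to 3911 to 7441 CPM in TRi-1-treated and 6551 to 12824 CPM in untreated aged mice, and their part in these differences was not tested.

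The third comparison asked the same of auranofin, in experiment 2. Again no member passed edgeR's threshold, where 3 of 16309 genes did, or 0.0184%. The called genes were Hmox1, Srxn1 and Gclm, known as genes of the NRF2 antioxidant response. Fitted values were positive for all 10 members, although that of Ddit4 was 0.00 and turned negative with library totals alone. Their median was 0.42 against 0.02 over all genes. An unadjusted edgeR p under 0.05 was found for 4 members, Eif4ebp1, Asns, Trib3 and Chac1, and for 1148 of the 16309 genes. DESeq2 called 1 member, Eif4ebp1. Plasma cell markers summed to 649, 4219, 1863 and 24340 CPM in treated and 5625 to 14130 CPM in untreated aged mice. The list of 10 glucocorticoid-induced genes includes the metallothionein gene Mt2. These genes, none of which passed by itself, summed to 2090 to 4301 CPM in treated and 1215 to 2080 CPM in untreated aged mice. The ranges nearly met, and such a sum can be carried by a few abundant genes. The part of the plasma cell markers and of this list in the differences below was not tested.

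Eif4ebp1 was the fourth of 16309 genes by p, directly after the 3 called genes. The auranofin-treated mice had 104.9, 75.2, 90.03 and 105.7 CPM, and the untreated aged mice 41.0, 46.3, 45.2, 42.2 and 33.4 CPM. Every treated library was above every untreated one, as held for 3.53% of genes. The difference was 1.16 ± 0.19, or 2.24-fold, with an edgeR adjusted p of 0.0587. It passed in 3 of 10 alternatives, by DESeq2 (adjusted p = 2.27e-05), with a filter of at least 5 CPM (0.0478) and with all 27 libraries in the fit (0.0337). It passed in none of the 9 fits with a library left out (edgeR adjusted p from 0.0717 to 0.352). The last 500 bases of Eif4ebp1 hold a repeat at least 90% identical to a stretch in transcripts of 26 other genes. Where in those transcripts the matches lie was not recorded. A part of the Eif4ebp1 reads could be shared if matches lie near 3' ends and the counting split such reads.

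Asns was at 30.7, 33.4, 33.96 and 20.5 CPM with auranofin against 20.8, 14.5, 14.1, 15.2 and 11.8 CPM without. A single treated library fell within the untreated range. The difference was 0.94 ± 0.25, or 1.92-fold (edgeR adjusted p = 0.41), and 1.09 without auranofin replicate 4. Trib3 was at 10.6, 5.56, 9.70 and 26.7 CPM against 2.07, 3.72, 4.24, 5.41 and 1.64 CPM. These groups did not overlap either (1.93 ± 0.52, edgeR adjusted p = 0.41), and the size fell to 1.33 without replicate 4. Chac1 was at 5.70, 3.13, 2.61 and 8.23 CPM against 1.29, 2.88, 0.51, 3.25 and 1.48 CPM (1.37 ± 0.58, edgeR adjusted p = 0.67), and 1.02 without replicate 4. Asns, Trib3 and Chac1 are the members whose promoter stretches are printed above, and Eif4ebp1 had no window. Sesn2 and Psat1, which matched the looser motif, gave 0.41 ± 0.38 and 0.13 ± 0.24 under auranofin. Whether the matches have a part in these differences was not tested.

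The other members gave no difference past their spread, and the signs of Ddit3 and Sesn2 turned without replicate 4. Ddit3 was at 25.3, 25.0, 21.6 and 116.6 CPM with auranofin, against 27.3, 57.5, 23.7, 46.9 and 31.7 CPM in untreated aged mice. Its fitted difference of 0.31 ± 0.48 (edgeR adjusted p = 0.93) became -0.65 without replicate 4. Sesn2 likewise went from 0.41 ± 0.38 to -0.02. Ddit4, at 0.00 ± 0.41, ran from -0.19 to 0.24 with a library left out. Replicate 4 held the highest level of the 4 treated libraries for 7 of the 10 members and the lowest for 2, Asns and Ppp1r15a. It is the library with the high adipocyte and plasma cell markers given above, and their part in these values was not tested. Atf4 was at 279.7, 229.8, 254 and 413 CPM (0.37 ± 0.26, edgeR adjusted p = 0.82), within the untreated range in 1 library. Its difference was 0.17 without replicate 4. Psat1 (0.13 ± 0.24) and Ppp1r15a (0.42 ± 0.46) overlapped between the groups, and Psat1 was at -0.02 without replicate 3.

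**Figure D2:**
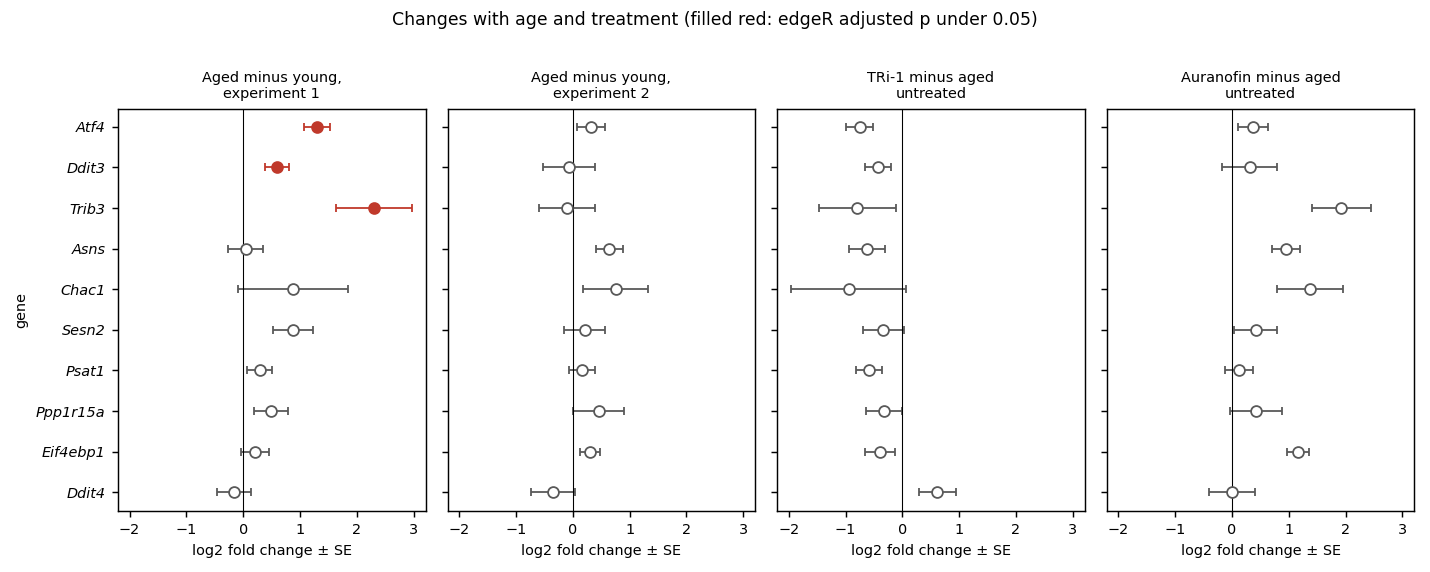
Log2 fold change with its SE (horizontal axes) of the 10 genes in 4 comparisons; red filled points passed an edgeR adjusted p of 0.05. Atf4, Ddit3 and Trib3 passed with age in experiment 1, and no gene passed in the other 3 panels, where TRi-1 values lie mostly left of 0 and auranofin values at or right of it.

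Treated aged mice were also set against young mice of their experiment, a comparison that shares its young libraries with the age comparison. In TRi-1-treated aged mice no member differed from young mice past the threshold, where 21% of genes did, 10.9% upward and 10.1% downward. No member's groups were free of overlap, as those of 21.9% of genes were. There 2 members, Atf4 and Trib3, had an unadjusted edgeR p under 0.05, as did 5381 of 16028 genes, and DESeq2 called no member. The Atf4 difference was 0.55 ± 0.22 (edgeR adjusted p = 0.0951), beside 1.30 for untreated aged against the same young mice. It passed without young replicate 3 (0.75, edgeR adjusted p = 0.0154), with library totals (0.77, edgeR adjusted p = 0.0195) and with only the groups compared (0.58, edgeR adjusted p = 0.0425). Library totals alone moved the median of all genes here by 0.22, to 2531 higher and 1028 lower calls against 1751 and 1620. Trib3 stood at 1.502 ± 0.67 (edgeR adjusted p = 0.13) beside 2.30, and passed without young replicate 1 (2.39, edgeR adjusted p = 0.0178).

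In auranofin-treated aged mice 4 of 10 members were above young mice, where 8.98% of genes passed in either direction and 5.42% upward. Eif4ebp1 rose by 1.47 ± 0.19 (edgeR adjusted p = 0.00035) and Asns by 1.59 ± 0.25 (edgeR adjusted p = 0.00122). For both of these and for Chac1 the groups did not overlap, as held for 9.53% of genes. The Eif4ebp1 and Asns calls held with each library left out. Chac1 rose by 2.13 ± 0.60 (edgeR adjusted p = 0.0368) and Trib3 by 1.82 ± 0.52 (edgeR adjusted p = 0.0397). Both low-count calls were fragile. Chac1 no longer passed without young replicates 1, 2 or 5 or auranofin replicates 1, 2 or 4 (adjusted p from 0.0514 to 0.103), nor without both libraries of low correlation (0.0994), with no filter (0.0629), with all 27 libraries (0.0835) or with only the groups compared (0.0589). Trib3 no longer passed without young replicates 1, 2, 4 or 5 or auranofin replicates 1 or 4 (0.0698 to 0.16) or with only the groups compared (0.085). Atf4 did not pass (0.68 ± 0.26, edgeR adjusted p = 0.11) except without young replicate 3 (0.85, edgeR adjusted p = 0.0398). In untreated aged against the same young mice, Eif4ebp1, Asns, Chac1 and Trib3 gave 0.30, 0.64, 0.75 and -0.11.

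The difference between the treatment effects was tested directly in the fit of all 27 libraries, where drug and experiment cannot be told apart. No member passed, with 0.0172% of 17484 genes called. At an unadjusted edgeR p under 0.05 there were 5 members and 1900 genes, and DESeq2 called 1 member, Eif4ebp1. Auranofin minus TRi-1 was 1.54 ± 0.33 for Eif4ebp1 (edgeR adjusted p = 0.11) and 1.55 ± 0.41 for Asns (edgeR adjusted p = 0.19). It was 2.71 ± 0.88 for Trib3 and 1.117 ± 0.35 for Atf4 (edgeR adjusted p = 0.26 and 0.24). The fifth was Psat1, at 0.71 ± 0.33 (edgeR adjusted p = 0.43). Eif4ebp1 passed without aged replicate 2 of experiment 1 (1.66, edgeR adjusted p = 0.0472). The members' median difference was 0.93, against -0.01 over all genes.

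**Figure D3:**
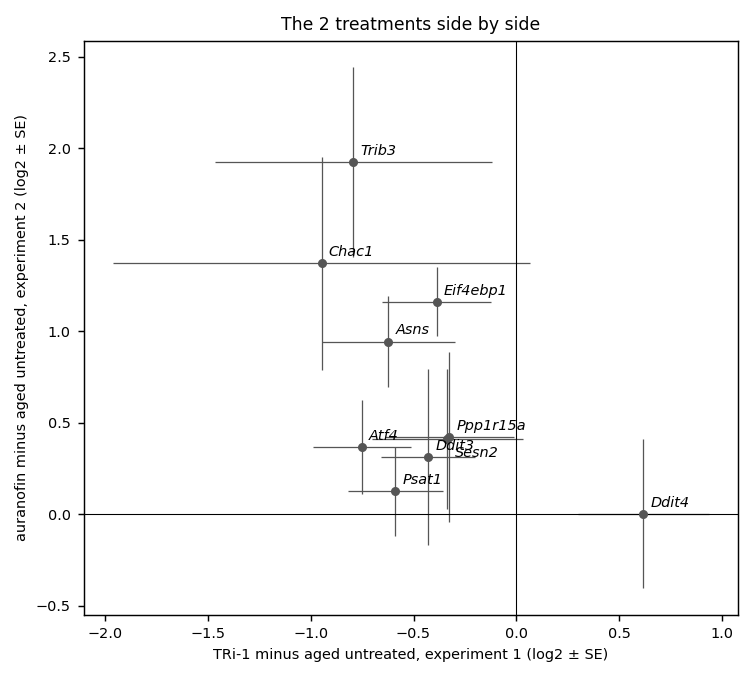
Log2 fold change of each gene under TRi-1 (horizontal axis) and auranofin (vertical axis), each against the untreated aged mice of its own experiment; bars are SE. All genes but Ddit4 lie left of 0 on the TRi-1 axis and above 0 on the auranofin axis, with Trib3, Chac1, Eif4ebp1 and Asns highest on the latter, and no single value passed the threshold.

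Ordered by mean level over the 6 groups, auranofin-treated aged mice ranked first for 6 members, Atf4, Trib3, Asns, Chac1, Ppp1r15a and Eif4ebp1. The young mice of experiment 1 ranked last for Atf4, Ddit3, Trib3 and Sesn2. Atf4 ran from 294 ± 82.0 CPM (SD, n = 4) with auranofin through 230.3, 226, 181 and 138 CPM to 93.8 ± 25.8 CPM (SD, n = 5) in young mice of experiment 1. Eif4ebp1 ran from 93.9 ± 14.4 CPM (SD, n = 4) with auranofin to 33.7 ± 6.80 CPM (SD, n = 5) in young mice of experiment 2. For all 10 members, the ranges of each pair of neighbours in this order overlapped, so no single step in an order exceeds the spread between libraries. Untreated levels also lay apart between experiments, as for Asns, at 26.2 ± 7.55 against 9.79 ± 2.29 CPM in young mice (SD, n = 5 each), with 1 young library of each experiment at 13.2 CPM. Those of Trib3 were 1.25 ± 1.42 against 3.67 ± 2.33 CPM. Whether this follows the mice or the preparation cannot be told apart.

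Genes around these members were read from lists of the pathway, chosen with earlier results of these data known. The counts below stand against the background over all genes. With age, 18.5% rose and 16.4% fell in experiment 1, and 5.86% rose and 4.59% fell in experiment 2. The eIF2 kinases sense the stress. Of 4 tested, Eif2ak4, encoding the amino acid sensor GCN2, fell with age in experiment 1 (-1.09 ± 0.32, edgeR adjusted p = 0.014), and the other 3 did not pass. Of 15 genes of eIF2, its exchange factor eIF2B and their regulators, 6 fell and none rose in experiment 1, and none passed in experiment 2. Examples are Eif2s2, the beta subunit of eIF2 (-1.12 ± 0.22), and Dnajc3, an inhibitor of eIF2 kinases (-1.003 ± 0.21). Eif2b3, a subunit of the exchange factor, gave -1.08 ± 0.25. The list also holds Eif2a (-1.11 ± 0.22), which encodes the separate initiation factor eIF2A and not the alpha subunit of eIF2. The median of this list was -0.50 in experiment 1.

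Other known ATF4 targets moved upward with age more often than downward. Of 19 tested, 10 rose and 1 fell in experiment 1, with a median of 0.88. In experiment 2, 5 rose and 1 fell, with a median of 0.45. Gdf15, a stress-induced secreted factor, rose by 3.56 ± 0.49 and 2.75 ± 0.56 (edgeR adjusted p = 6.14e-05 and 0.00545). Sqstm1, the autophagy receptor p62, rose by 1.27 ± 0.16 in experiment 1 and gave 0.16 ± 0.22 in experiment 2. Ero1l, an oxidase of the endoplasmic reticulum, rose by 1.35 ± 0.18 in experiment 1. Several genes of this list are also expressed by macrophages, whose markers rose in the same libraries, and that part was not tested.

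The supply genes of amino acids did not move one way. Of 21 cytosolic aminoacyl-tRNA synthetase genes, counting the tRNA exporter Xpot kept with them, 5 rose and 6 fell with age in experiment 1. Vars (1.56 ± 0.21), Farsa (1.44 ± 0.23) and Wars (1.29 ± 0.20) were among those that rose, and Eprs fell by 1.57 on the log2 scale. In experiment 2 Eprs alone of this list passed (-0.93 ± 0.27, edgeR adjusted p = 0.0352). Of 9 amino acid transporters, Slc7a11, the cystine importer, rose by 1.53 ± 0.52 and Slc1a5, a glutamine importer, by 0.86 ± 0.29, while Slc38a2 fell by 0.63. Of 13 genes of serine, glycine and folate synthesis, Shmt2 rose (1.002 ± 0.25) and Mthfd2, a frequently cited ATF4 target of mitochondrial folate metabolism, fell (-1.08 ± 0.38, edgeR adjusted p = 0.0359). None of these lists' genes other than Eprs passed in experiment 2.

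Among basic leucine zipper partners and other stress regulators, 7 of 17 rose and 3 fell with age in experiment 1, and 3 rose in experiment 2. Cebpb, a partner of ATF4, rose by 1.67 ± 0.27 and 1.01 ± 0.27 in the 2 experiments, and Batf by 2.24 ± 0.43 and 2.58 ± 0.43. Batf is best known from lymphocytes. T cell markers summed to 11.4 to 17.4 CPM in young and 62.8 to 229 CPM in aged mice of experiment 1, and B cell markers to 4.64 to 9.62 CPM and 64.4 to 259 CPM. In experiment 2, T cell markers summed to 8.83 to 24.0 CPM in young and 48.1 to 156 CPM in aged mice. B cell markers there summed to 6.01 to 18.8 CPM and 55.2 to 241 CPM. The part of these cells in the Batf values was not tested. Of 15 endoplasmic reticulum chaperone genes, 3 rose and 5 fell in experiment 1. Hsp90b1 fell in both experiments (-2.63 ± 0.32 and -1.65 ± 0.39), and Edem1 rose in both (1.64 ± 0.22 and 1.70 ± 0.32).

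The nearest relatives of the members moved in both directions. Trib1, a paralogue of Trib3 that is also among the other ATF4 targets, rose by 1.94 ± 0.28 in experiment 1 and 1.69 ± 0.28 in experiment 2, whereas Trib2 fell by 1.70 in experiment 1. Eif4ebp2, which encodes the related repressor 4E-BP2, rose by 1.38 ± 0.21 in experiment 1 (edgeR adjusted p = 0.000135). Ddit4l, the paralogue of Ddit4, fell by 1.90 and 1.78 in the 2 experiments. In all, 4 of 12 relatives rose and 3 fell in experiment 1, and 1 rose and 1 fell in experiment 2. The 12 include Psph, a gene of the same serine pathway as Psat1 and not its paralogue, which is also counted among the serine synthesis genes.

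Other pathways that share targets with ATF4 were counted in the same way. Of 12 p53 target genes, 6 rose and none fell with age in experiment 1, and 2 rose in experiment 2. Of 15 genes of mTORC1 and cap-dependent translation, 1 rose and 1 fell in experiment 1, namely Mtor (0.69 ± 0.20) and Eif4a1 (-1.08 ± 0.29), and 1 fell in experiment 2. Of 9 glucocorticoid-induced genes, 2 rose and 2 fell in experiment 1 and 1 fell in experiment 2. Of 13 immediate early genes, 4 rose and 1 fell in experiment 1, and 3 rose in experiment 2. In the comparisons of treated with untreated aged mice, 1 gene of all 13 lists passed. Phlda3, a p53 target, fell with TRi-1 by 1.26 on the log2 scale (edgeR adjusted p = 0.0461), from 30.9 ± 6.94 to 13.1 ± 2.75 CPM (SD, n = 4 each). Under auranofin, Sqstm1 gave 0.97 ± 0.24 (edgeR adjusted p = 0.41), Gdf15 1.43 ± 0.54 (0.58) and Slc7a11 1.28 ± 0.73 (0.78), none of which passed.

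**Figure D4:**
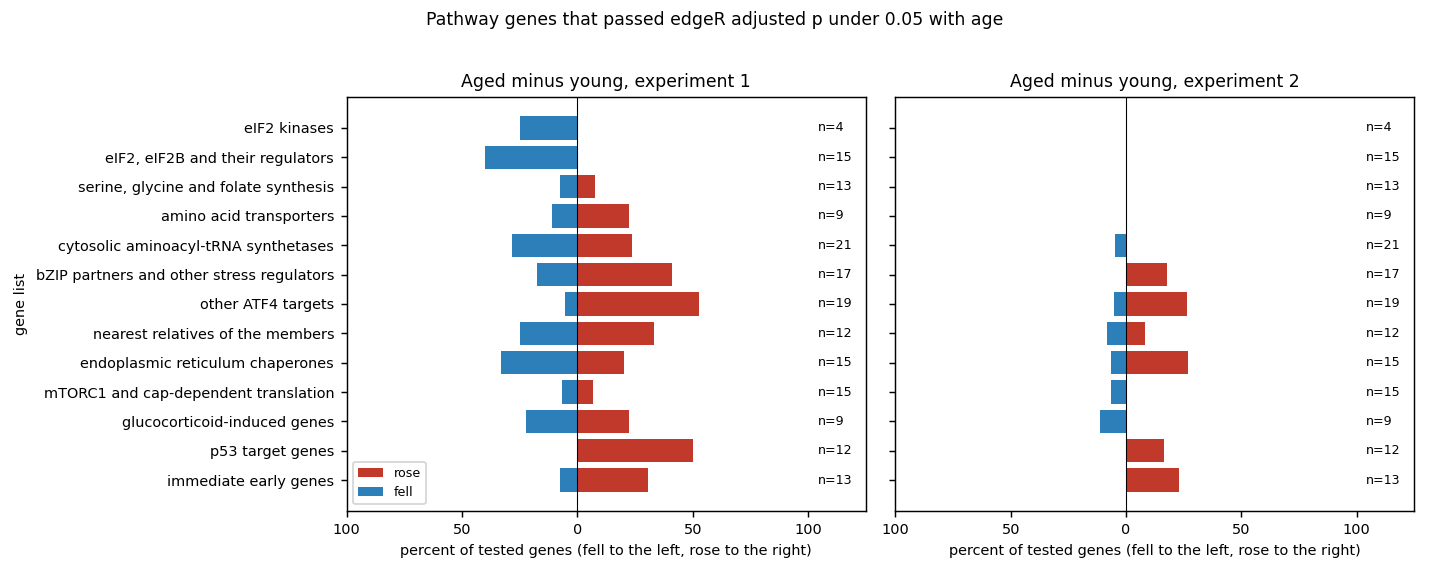
Percent of the tested genes of each pathway list that rose (right, red) or fell (left, blue) with age at an edgeR adjusted p of 0.05, with the number tested at the right of each row. Other ATF4 targets and p53 targets extend mainly to the right in both experiments, and eIF2 and eIF2B genes only to the left in experiment 1.

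Whether the members rose and fell together between mice of the same group was asked over the 27 libraries after removing the 6 group means. Of 45 pairs, 29 had a positive Pearson r and the median r was 0.12. No pair had a permutation p adjusted over the 45 pairs under 0.05, the lowest being 0.0534, and 10 pairs had an unadjusted p under 0.05 (two-sided, 100000 permutations within groups). Among those 10, Atf4 with Sesn2, Ddit3 with Sesn2 and Trib3 with Ddit4 were positive. The others, each a pair with Ppp1r15a or Asns, were negative. Atf4 and Sesn2 had the highest r, 0.65 (rho = 0.57, permutation p = 0.00124 and 0.00625, adjusted p = 0.0534 and 0.14). It was 0.60 in experiment 1, 0.69 in experiment 2 and 0.65 without the 2 libraries farthest from the median of Atf4. Ddit3 and Ppp1r15a had the lowest r, -0.69 (rho = -0.55, permutation p = 0.00281 and 0.0169, adjusted p = 0.0534 and 0.21). It was -0.43 and -0.74 within the experiments and -0.54 without the 2 libraries farthest from the median of Ddit3. Ddit3 and Asns had r = -0.50 (rho = -0.56, permutation p = 0.00356 and 0.0041, adjusted p = 0.0534 and 0.14), with -0.66 and -0.61 within the experiments and -0.47 without the 2 farthest libraries. Leaving out each experiment or the 2 farthest libraries gave no pair under 0.05 after adjustment.

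**Figure D5:**
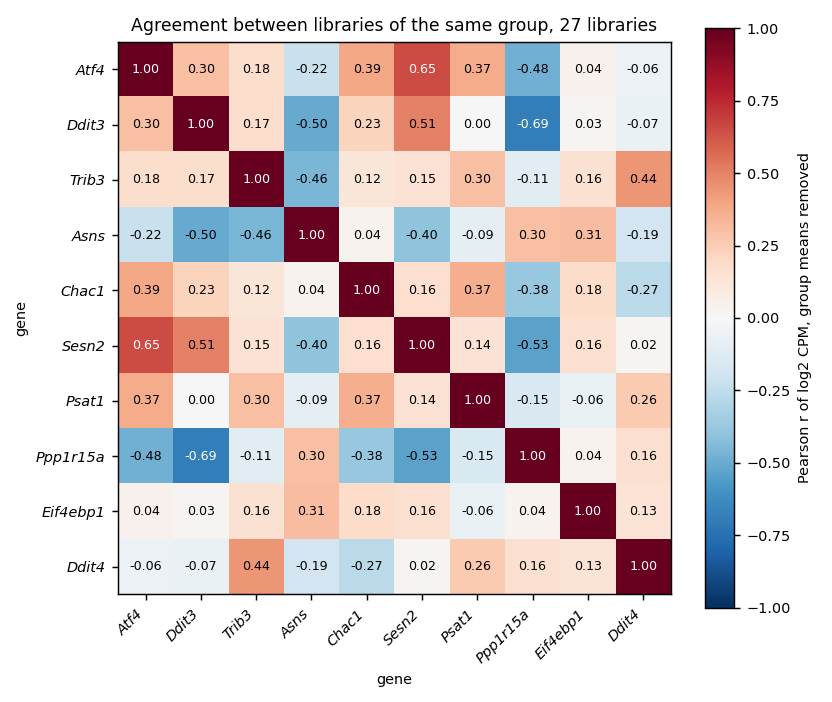
Pearson r between the log2 levels of each pair of genes over 27 libraries with group means removed (red positive, blue negative, value in each cell). Atf4 with Sesn2 is the most positive pair and Ddit3 with Ppp1r15a the most negative, and no pair passed after adjustment over the 45.

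The genes whose within-group pattern was most like a member's were found among the 11340 genes whose mean reached 5 CPM, as a description over the 27 libraries. For Atf4 they were Atp6ap1 (r = 0.88), Nars (0.88) and Rhoc (0.88). For Ddit3 they were Acaa2 (0.94), Gabarapl1 (0.92) and Sod1 (0.91), the last of which had r = 0.30 in experiment 1 and 0.98 in experiment 2, where auranofin replicate 4 lies far from its group. For Trib3 they were Klc4 (0.77), Dhx30 (0.72) and Wdr81 (0.69), and Dhx30 had r = 0.95 in experiment 1 and 0.37 in experiment 2. The points share libraries and depth, and these values carry no test.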

How the data were processed

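Ovary polyA RNA was extracted with a column kit and DNase and made into 3' tag libraries with the QuantSeq kit, per the labels' protocols. The authors deposited whole-number counts per Ensembl gene ID in 27 libraries. Tools listed in the submitters' processing notes are DESeq2 and RSEM 1.2.3, with the build mm10, and no role is given for any of them. The annotation, the strand setting and the handling of shared reads are not given in the sources used here. Of 51789 IDs, 51596 matched a symbol in GENCODE M21.

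Counts were tested with edgeR 4.0.16 in R 4.3.3 (TMM, filterByExpr, quasi-likelihood F test, Benjamini-Hochberg adjustment over all genes tested, threshold 0.05). Each experiment was fitted with its 3 group means, and comparisons across experiments used 1 fit of all 27 libraries with 6 group means. Standard errors were taken as the size of the log2 change over the root of its F value. Relations used log2 CPM with a prior count of 2 and permutations in Python 3.11.15. The edgeR script was tested on simulated data. Alternatives were RLE or total-count scaling, DESeq2 1.42.0, other filters, other sets of libraries, a replicate block, no haemoglobin and immunoglobulin genes, and each library left out. Leaving out both libraries of low correlation, and the looser motif, were chosen after seeing the data.

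All 10 members were named in every comparison. Of each pathway list, at most 4 genes with the smallest p with age in experiment 1 were named, with any gene called under a treatment. Relatives were named whatever their p, and Sqstm1, Gdf15 and Slc7a11 under auranofin because they were already named. The members and lists were chosen with earlier results of these data known. The labels number the libraries of a group as separate samples but do not tie each to an animal, so p-values measure the spread between these samples. No 2 libraries agreed within sampling noise (351 pairs). Library totals of 6460903 to 14814381 counts leave Chac1 and Trib3 with few reads per library, and their counts also varied widely between libraries of a group. Near-identical ends were found with BLAST 2.17.0.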

Additional observations from a re-analysis of the deposited data

Results flagged for a closer look

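In 6 of 60 sets of libraries, 1 set for each gene and group, the highest or lowest library stood apart by Dixon's ratio of its gap to the range, where chance gives about 1 in 20. Ddit3 was at 116.6 CPM in auranofin replicate 4, against 21.6 to 25.3 CPM in the other 3. Atf4 was at 139.7 CPM in young replicate 3 of experiment 1, against 79.3 to 86.5 CPM. In the same library Ppp1r15a was the lowest of its group at 4.445 CPM. Asns was at 13.22 CPM in young replicate 1 of experiment 1, against 26.7 to 32.1 CPM. Psat1 was at 44.54 CPM in aged replicate 1 of experiment 1, and at 38.21 CPM in young replicate 3 of experiment 2, the library with low luteal and granulosa cell markers.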

How the results depend on the processing

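With each library left out, Atf4 with age in experiment 1 passed throughout (adjusted p up to 0.00411 over all alternatives). The causes of the changes below were not tested, other than fewer samples or genes where the alternative itself removes them. Of all genes under TRi-1, 67 were called, against 372 with library totals, 587 by DESeq2, 167 with no filter, 172 at 5 CPM or more, 2 with all 27 libraries, 0 with only the groups compared, and 0 to 164 with a library left out. Under auranofin, 1 member was called by DESeq2, at 5 CPM or more and with all 27 libraries, against 0. Genes called there were 3, against 76 by DESeq2, 10 with all 27 libraries and 8 without both libraries of low correlation. TRi-1-treated against young mice gave 1 member with library totals or only the groups compared, against 0, and 0 to 1 with a library left out. Auranofin-treated against young mice gave 2 members with only the groups compared, against 4, and 2 to 5 with a library left out. Genes called there were 1464, against 2329 by DESeq2, 2398 with all 27 libraries, 733 with only the groups compared, and 906 to 1840 with a library left out. For the difference of age effects, 0 genes became 1 with library totals, 147 by DESeq2, 6 at 5 CPM or more, 1 without haemoglobin and immunoglobulin genes, 4 without both libraries of low correlation, and 0 to 19 with a library left out. For the difference of treatment effects, DESeq2 called 1 member against 0, with 0 to 1 when a library was left out. Genes called there were 3, against 91 by DESeq2, 5 at 5 CPM or more, 14 without both libraries of low correlation, and 2 to 10 with a library left out. For age over both experiments, members called went from 2 to 1 with RLE scaling, library totals, no filter, 5 CPM or more, and no haemoglobin or immunoglobulin genes, and were 1 to 2 with a library left out. The motif count went from 3 to 5 with the looser motif. No relation between members passed under any alternative.

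Without both libraries of low correlation, signs turned for Trib3 (0.33) and Ddit4 (0.033) with age in experiment 2, and for Ddit3 (-0.64), Sesn2 (-0.023) and Ddit4 (-0.19) under auranofin. Signs also turned there for Ddit3 in auranofin-treated against young mice (-0.90), for Psat1 (0.10), Ppp1r15a (0.099) and Ddit4 (0.22) in the difference of age effects, and for Ddit3 in that of treatments (-0.23). Ddit4 under auranofin was at -0.078 with library totals, -0.0018 with no filter and -0.0057 at 5 CPM or more. With library totals, Chac1 and Eif4ebp1 in TRi-1-treated against young mice were at 0.19 and 0.027. Ppp1r15a was at 0.0052 in the difference of age effects without haemoglobin and immunoglobulin genes.

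Leaving out a library turned the sign of several values. With age in experiment 1, Asns ran from -0.17 to 0.12, Eif4ebp1 from -0.13 to 0.40 and Ddit4 from -0.54 to 0.029. In experiment 2, Ddit3 ran from -0.30 to 0.075, Trib3 from -0.35 to 0.35, Sesn2 from -0.0051 to 0.33 and Ddit4 from -0.61 to 0.060. Under TRi-1, Sesn2 ran from -0.51 to 0.021. Under auranofin, Ddit3 ran from -0.65 to 0.53, Sesn2 from -0.024 to 0.58, Psat1 from -0.020 to 0.24 and Ddit4 from -0.19 to 0.24. In TRi-1-treated against young mice, Ddit3 ran from -0.042 to 0.28, Chac1 from -0.39 to 0.26 and Ppp1r15a from -0.019 to 0.30. In auranofin-treated against young mice, Ddit3 ran from -0.73 to 0.43 and Ddit4 from -0.61 to 0.064. In the difference of age effects, Chac1 ran from -0.47 to 0.66, Psat1 from -0.19 to 0.10, Ppp1r15a from -0.34 to 0.21, Eif4ebp1 from -0.050 to 0.42 and Ddit4 from -0.41 to 0.22. In that of treatments, Ddit3 ran from -0.25 to 0.98.

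The replicate numbers gave no sign of pairing the samples. Over 25 pairs of libraries with the same number, deviations from group means had a median r of -0.03, with 6 over 0.1. Over 96 pairs with other numbers the median r was 0.03, with 23 over 0.1. Such values cannot show that the numbers were not a pairing. With a replicate block, genes called were 1 under TRi-1, 11 under auranofin, 2229 in TRi-1-treated against young mice and 1 in the difference of treatment effects, and members called in auranofin-treated against young mice were 2. Lost under the block were Ddit3 with age in experiment 1 (0.51, adjusted p = 0.146) and, against young mice with auranofin, Trib3 (1.63, 0.0682) and Chac1 (1.92, 0.0759). The block put Ddit4 under auranofin at -0.11, and Chac1 and Ddit4 in the difference of age effects at 0.71 and 0.0060.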
